A study of Sus scrofa with 8 samples.

Results

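The subject is a set of 10 genes that guide olfactory axons, measured in olfactory epithelium of newborn pigs with and without CFTR, the anion channel gene disrupted in cystic fibrosis. The set was named gene by gene and not by its values: the neuropilins NRP1 and NRP2, the plexins PLXNA1 and PLXNA3, the semaphorins SEMA3A and SEMA3F, the receptor ROBO2 and its ligand SLIT1, and the adhesion proteins KIRREL2 and KIRREL3. All 10 symbols were paired with an Ensembl pig identifier, out of 25880 pig genes in the count table, and all 10 passed the filter on low counts that left 17175 genes for testing. The study was set up to examine the molecular pathology of smell loss in cystic fibrosis. It comprised 8 mRNA-seq libraries of dissected, snap-frozen olfactory neuroepithelium, 4 from wild-type newborn piglets (numbers 5, 9, 12 and 23) and 4 from CFTR-knockout newborn piglets (numbers 6, 18, 20 and 21). The labels give neither strain, sex, litter nor the knockout allele, and no treatment was applied to either group.

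Olfactory sensory neurons send their axons from the nasal epithelium to the olfactory bulb, where axons of neurons with the same odorant receptor meet in shared glomeruli. Some guidance genes are made by these neurons themselves, so that axons sort against each other before and at the bulb. The bulk values given here do not show which cells made each transcript. In mice, neuropilins bind secreted class 3 semaphorins and signal through A-type plexins, SLIT proteins repel axons that carry ROBO receptors, and KIRREL proteins bind their own kind on neighbouring axons and sharpen the separation of glomeruli. NRP1 and KIRREL levels in mouse neurons depend on receptor-driven cAMP and on neuronal activity, respectively. CFTR itself acts as a chloride and bicarbonate channel of epithelial cells.

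The libraries held 30836904 to 43253395 counts. CFTR, the disrupted gene, was 56.6, 34.3, 34.0 and 36.6 CPM (reads relative to the library total, TMM-scaled) in wild-type piglets 5, 9, 12 and 23, and 6.31, 5.24, 7.43 and 8.37 CPM in the knockout libraries 6, 18, 20 and 21, so the targeted transcript separated the groups as labelled. Its log2 fold change was -2.56 ± 0.21 (SE; adjusted p = 0.0121, edgeR). Mature olfactory neuron markers were present in every library, with the cyclic nucleotide-gated channel CNGA2 at 231 to 512 CPM. Their sum over 14 matched markers was lowest in wild-type piglet 5 (6736 CPM) and 9107 to 11575 CPM in the rest. Of these markers 12 had a positive log2 fold change (knockout against wild-type) and 2 a negative one, and 0 were called by edgeR. Over all genes 51.6% were positive. Bone and connective tissue markers, 16 matched, reached a sum of 45093 CPM for knockout piglet 18, beside 1664 to 5810 CPM elsewhere. Endothelial markers, 10 matched, summed to 272 to 532 CPM in the wild-type libraries against 264 to 395 CPM in knockout libraries. Ensheathing and Schwann glia markers, 11 matched, summed to 275 to 481 CPM in wild-type and 316 to 345 CPM in knockout libraries. Of these, 2 were positive and 9 negative (median log2 fold change -0.39). The edgeR test called 0 of them and DESeq2 called 1 lower, beside 1.31% of all genes with an adjusted p. Sustentacular markers, 9 matched, were positive in 3 and negative in 6. EIF1AY and KDM5D, which are Y-linked, had reads in wild-type piglets 9 and 12 (1388 and 1640 in sum) and 0 reads in the other 6. In such bulk tissue fewer cells of a type and less RNA per cell cannot be told apart.

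Per kilobase of exon, KIRREL2 was by far the most abundant of the 10 genes and SEMA3A the least. KIRREL2 averaged 232 RPKM over the 8 libraries (the TMM-scaled CPM divided by the exon length in kilobases in the deposited table), which placed it at rank 128 of the 17175 tested genes. Its lowest library, 68.5 RPKM, was above the highest library of every other member. PLXNA1 (28.9 RPKM), PLXNA3 (26.0 RPKM) and ROBO2 (25.8 RPKM) followed, and their ranges overlapped. Next came NRP2 at 19.0, SLIT1 at 16.5, NRP1 at 15.2, SEMA3F at 14.4 and KIRREL3 at 11.7 RPKM, again with overlapping ranges between neighbours in this order. SEMA3F shares part of its exonic bases with another gene on the same strand (given below), so its level per kilobase and its place in this order are uncertain. SEMA3A closed the series at 5.77 RPKM, with 4.10 to 7.23 RPKM across libraries, and overlapped in range with KIRREL3, which was the higher of the 2 in 7 of 8 libraries.

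**Figure D1:**
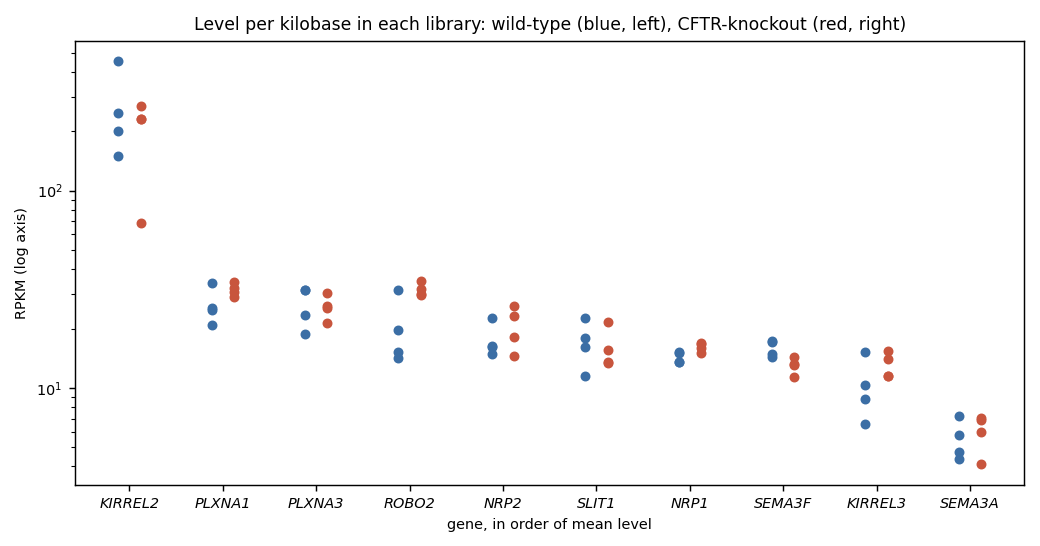
Level of each guidance gene per kilobase of exon (RPKM, log axis) in each of the 8 libraries, with wild-type piglets in blue and CFTR-knockout piglets in red. KIRREL2 lies above all other members in every library, and SEMA3A has the lowest mean level.

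No member passed the test between genotypes. The quasi-likelihood test of edgeR, adjusted over all genes by the Benjamini-Hochberg method, called 0 of the 10 members, beside 0.00582% of all genes tested, which is CFTR alone. At an unadjusted p under 0.05 stood 3 members against 11.2% of all genes, with NRP1 and ROBO2 among the higher (5.4% of all genes) and SEMA3F among the lower (5.8%). DESeq2 called 0 members (1.31% of genes with an adjusted p) and limma with sample quality weights 0 (0.064%). The CPM values of the groups overlapped in all 10 members, whereas they did not overlap in 5.81% of all genes. Log2 fold changes (knockout against wild-type) were positive in 6 members and negative in 4, with a median of 0.14 beside 0.01 over all genes, of which 51.6% were positive. In 9 members the estimate was within 1.5-fold of no difference, ROBO2 being the exception.

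**Figure D2:**
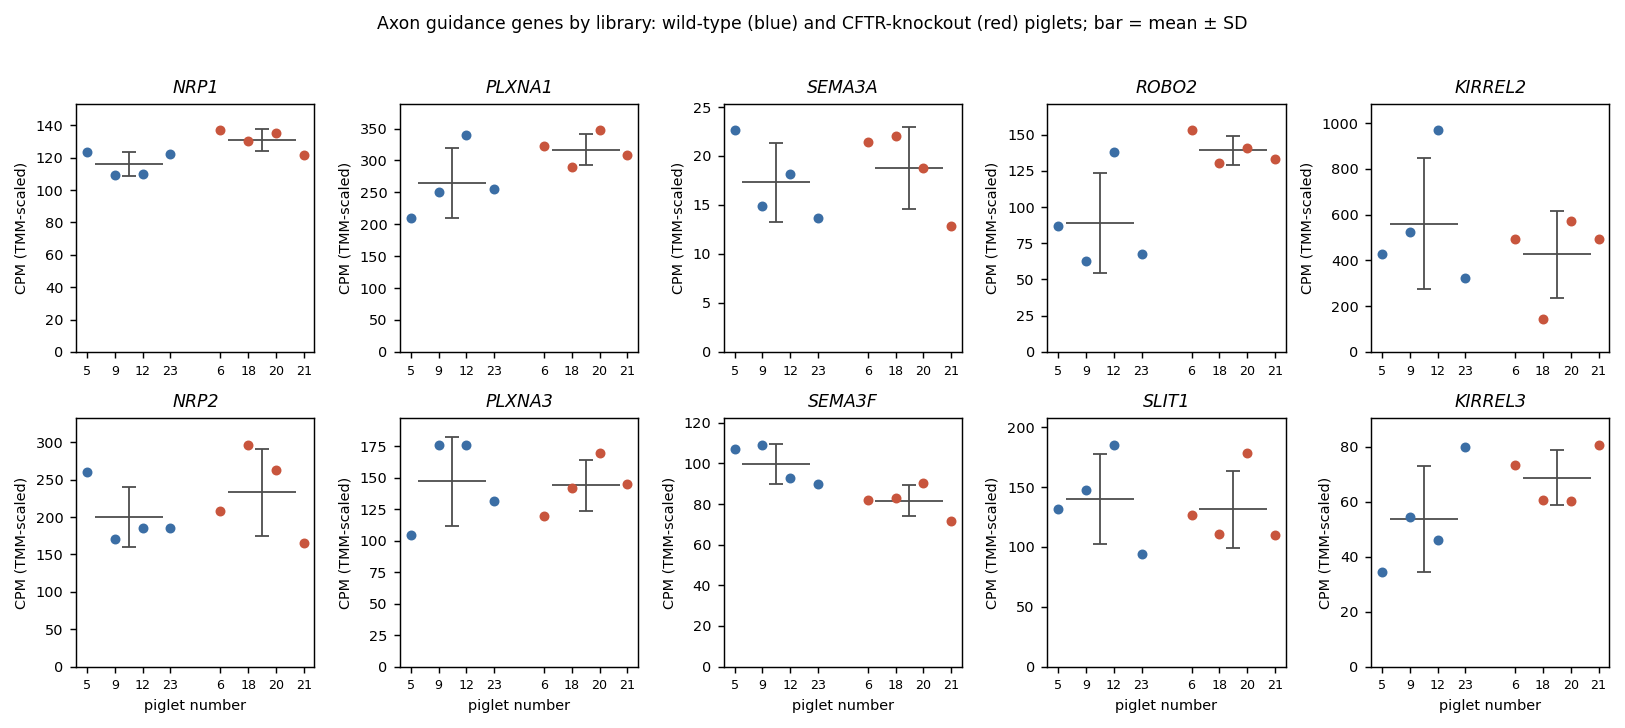
CPM of the 10 guidance genes in each library (points, labelled by piglet number), with the mean ± SD of each group of 4 drawn as a bar. The groups overlap in every panel; in ROBO2 the overlap comes from wild-type piglet 12 at 138 CPM.

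NRP1 and NRP2 encode the neuropilins, single-pass co-receptors that give semaphorin receptors their ligand specificity. NRP1, which binds SEMA3A and on vessels also VEGF (ENSSSCG00000011102, chromosome 10, 56244105 to 56430811, minus strand), was 123, 110, 110 and 122 CPM in wild-type piglets 5, 9, 12 and 23 and 137, 130, 135 and 122 CPM in the knockout libraries 6, 18, 20 and 21. Of the 10 genes it varied least, by 1.25-fold between the lowest and the highest library. Knockout piglets 6, 18 and 20 were above every wild-type library, and knockout piglet 21 lay within the wild-type range. The means were 116 ± 7.52 and 131 ± 6.71 CPM (SD, n = 4 each), and the log2 fold change was 0.17 ± 0.07 (SE, adjusted p = 0.433, edgeR).

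NRP2, which binds SEMA3F (ENSSSCG00000026383, chromosome 15, 108974684 to 109093525, plus strand), was 260, 170, 185 and 186 CPM in the wild-type libraries against 208, 297, 264 and 165 CPM in the knockout libraries, in the same order of animals. The 3 highest libraries, knockout piglets 18 and 20 and wild-type piglet 5, came from both groups. These are also the 3 libraries with the highest endothelial marker sums, 395, 369 and 532 CPM; the part of vessels in the NRP2 values was not tested. The log2 fold change was 0.22 ± 0.20 (adjusted p = 0.652, edgeR), and the 95% interval of the fold ran from 0.855 to 1.59.

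PLXNA1 and PLXNA3 encode A-type plexins, the transmembrane subunits that carry the semaphorin signal into the growth cone. PLXNA1 (ENSSSCG00000024001, chromosome 13, 73053094 to 73094627, minus strand) was 210, 250, 340 and 256 CPM in the wild-type libraries against 323, 290, 347 and 308 CPM in the knockout libraries. Wild-type piglet 12 was inside the knockout range, and the other 3 wild-type libraries were below every knockout library. The log2 fold change was 0.26 ± 0.14 (adjusted p = 0.491, edgeR), and 0.40 ± 0.11 without wild-type piglet 12 (adjusted p = 0.141, edgeR). Single omissions of a library gave 0.16 to 0.40, so the estimate without that piglet was the highest of them.

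PLXNA3 (ENSSSCG00000023483, chromosome X, 124984198 to 124996277, plus strand) was 105, 176, 176 and 132 CPM in the wild-type libraries against 120, 141, 170 and 145 CPM in the knockout libraries. The highest values were those of wild-type piglets 9 and 12, the libraries with Y-linked reads. The log2 fold change was -0.03 ± 0.18 (adjusted p = 0.954, edgeR), with a 95% interval of 0.743 to 1.29 for the fold. With the presence of Y-linked reads as a covariate the estimate turned to 0.29 ± 0.15 (adjusted p = 0.509).

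SEMA3A and SEMA3F encode secreted class 3 semaphorins, which repel axons that carry NRP1 and NRP2, respectively. SEMA3A (ENSSSCG00000015398, chromosome 9, 96066121 to 96385774, plus strand) was 22.6, 14.9, 18.1 and 13.7 CPM in the wild-type libraries against 21.5, 22.0, 18.8 and 12.8 CPM in the knockout libraries. Both groups spanned nearly the same range. Its log2 fold change was 0.12 ± 0.21 (adjusted p = 0.837, edgeR), with a 95% interval of -0.36 to 0.59 on the same scale.

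SEMA3F (ENSSSCG00000011398, chromosome 13, 32641354 to 32673653, plus strand) had the smallest p of the 10 genes by edgeR, whereas ROBO2 had the smallest by DESeq2 and limma. Its values were 107, 109, 93.0 and 90.0 CPM in the wild-type libraries against 82.1, 83.0, 90.4 and 71.5 CPM in the knockout libraries. Only knockout piglet 20 reached into the wild-type range, just above wild-type piglet 23. The means were 99.8 ± 9.74 and 81.7 ± 7.77 CPM (SD, n = 4 each), and the log2 fold change was -0.29 ± 0.10 (adjusted p = 0.405, edgeR). The gene model shares 2222 of its 6284 exonic bases with GNAI2, the next gene on the same strand and a G protein subunit, so the assignment of reads in the shared exons is uncertain. GNAI2, named because of this overlap, had a log2 fold change of -0.07 ± 0.12 (adjusted p = 0.832, edgeR).

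ROBO2 and SLIT1 form a receptor and ligand pair that sorts olfactory axons along the dorsoventral axis of the mouse bulb. ROBO2 (ENSSSCG00000012002, chromosome 13, 177369577 to 177723151, minus strand) had the largest estimate of the 10 genes and the widest contrast between spread in the wild-type and in the knockout group. It was 87.0, 62.4, 138 and 67.5 CPM in wild-type piglets 5, 9, 12 and 23 and 153, 130, 141 and 133 CPM in the knockout libraries 6, 18, 20 and 21. The 4 knockout libraries lay within 1.18-fold of each other, whereas the wild-type libraries spanned 2.21-fold. Wild-type piglets 5, 9 and 23 were below every knockout library, and wild-type piglet 12 was among them. The means were 88.8 ± 34.6 and 139 ± 10.2 CPM (SD, n = 4 each), a 1.57-fold higher estimate in knockout piglets with a 95% interval of 1.10 to 2.24, a log2 fold change of 0.65 ± 0.23 and an edgeR adjusted p of 0.406.

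The ROBO2 estimate depended on wild-type piglet 12, without which it was 0.94 ± 0.12 (adjusted p = 0.0531, edgeR). With each of the other libraries left out it was 0.51 to 0.68, and limma with quality weights gave 0.90 ± 0.18 (adjusted p = 0.0852). Set against the summed mature neuron markers of the same library, ROBO2 was 12.9, 6.86, 12.1 and 6.70 CPM per 1000 marker CPM in the wild-type libraries against 13.9, 13.6, 13.8 and 11.5 in knockout piglets, a difference of mean log2 values of 0.51. On this scale wild-type piglets 5 and 12 fell in the knockout range and piglets 9 and 23 lay below it. The same difference was -0.03 for NRP1, 0.0013 for NRP2, 0.08 for PLXNA1, 0.21 for KIRREL3 and -0.09 for SEMA3A. It was -0.21 for PLXNA3, -0.28 for SLIT1, -0.49 for SEMA3F and -0.65 for KIRREL2.

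SLIT1, the secreted ligand (ENSSSCG00000010512, chromosome 14, 108445900 to 108624524, minus strand), was 132, 148, 185 and 94.3 CPM in the wild-type libraries against 127, 111, 178 and 110 CPM in the knockout libraries. High and low libraries occurred in both groups. Its log2 fold change was -0.09 ± 0.22 (adjusted p = 0.883, edgeR), with a 95% interval of 0.667 to 1.32 for the fold. The estimate turned to 0.22 ± 0.23 with the Y-linked covariate (adjusted p = 0.725, edgeR) and to 0.072 without wild-type piglet 12.

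KIRREL2 and KIRREL3 encode immunoglobulin-domain adhesion proteins related to nephrin, and mouse neurons tend to express either the one or the other at a high level. KIRREL2 (ENSSSCG00000002915, chromosome 6, 45275943 to 45283443, plus strand) was the most variable member, at 428, 526, 969 and 321 CPM in the wild-type libraries against 495, 146, 571 and 493 CPM in the knockout libraries. Its highest library, wild-type piglet 12, was 6.64-fold above its lowest, knockout piglet 18, which is also the library rich in bone and connective tissue markers. The log2 fold change was -0.40 ± 0.44 (adjusted p = 0.720, edgeR). It was 7.2e-04 without wild-type piglet 12 and -0.11 without knockout piglet 18, and it turned to 0.19 ± 0.49 with the Y-linked covariate (adjusted p = 0.893, edgeR).

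Markers of olfactory zones, the bands of epithelium that express different receptor sets, gave a mixed picture in knockout piglet 18. NCAM2, an adhesion molecule of ventral neurons in mice, was lowest there at 39.0 CPM against 48.6 to 99.9 CPM in the other libraries. ACSM4, an enzyme of the dorsal zone, was highest there at 186 CPM against 49.0 to 107 CPM. NQO1, a further dorsal enzyme, did not follow ACSM4, with 166 CPM there and 74.1 to 226 CPM in the other libraries, and MSX1, NR2F1 and NR2F2 also lay within the range of the other libraries. The summed mature neuron markers of that library, 9585 CPM, were within the range of the other libraries. The part of the zone sampled in the KIRREL2 values was not tested.

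KIRREL3 (ENSSSCG00000015234, chromosome 9, 53492198 to 53664072, minus strand) was 34.4, 54.4, 46.0 and 80.0 CPM in the wild-type libraries against 73.3, 60.5, 60.4 and 80.7 CPM in the knockout libraries. Wild-type piglet 23 matched the upper knockout libraries, and the other 3 wild-type libraries were below all of them. Its log2 fold change was 0.36 ± 0.23 (adjusted p = 0.544, edgeR), 0.61 ± 0.17 without wild-type piglet 23 (adjusted p = 0.526) and 0.18 ± 0.20 without wild-type piglet 5 (adjusted p = 0.673).

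**Figure D3:**
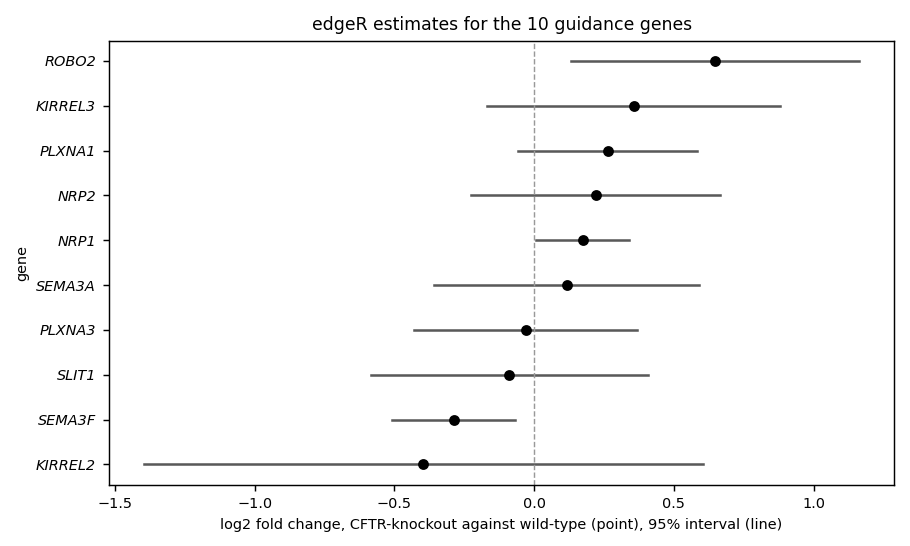
edgeR log2 fold change of each guidance gene, CFTR-knockout against wild-type (point), with its 95% interval (line). The intervals of ROBO2, NRP1 and SEMA3F do not include 0 before adjustment over all genes, and the interval of KIRREL2 is the widest, from -1.39 to 0.60.

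Ratios of partner genes within a library do not use library scaling. Those of 4 pairs, per kilobase of exon, were compared by a two-sided exact permutation test, whose smallest possible p with 4 libraries against 4 is 0.0286, and adjusted over the 4 pairs. The log2 ratio of PLXNA1 to PLXNA3 was 0.16, -0.34, 0.11 and 0.11 in wild-type and 0.59, 0.19, 0.19 and 0.24 in knockout piglets, and it was the only ratio of the 4 whose groups did not overlap. The gap between the groups was narrow, 0.158 in wild-type piglet 5 against 0.188 in knockout piglet 20. The difference of means was 0.29 (exact permutation p = 0.0286, adjusted p = 0.114). The lowest wild-type ratio was that of piglet 9, 1 of the 2 with Y-linked reads, and PLXNA3 is on the X chromosome; what sex contributes was not tested for the ratio.

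The remaining ratios overlapped between the groups. For SEMA3A to SEMA3F the mean log2 ratio was -1.54 ± 0.30 in wild-type and -1.14 ± 0.27 in knockout piglets (SD, n = 4 each, exact permutation p = 0.143, adjusted p = 0.286). The exons that SEMA3F shares with GNAI2 leave the level of this ratio uncertain. KIRREL2 exceeded KIRREL3 in every library, by 9.88-fold to 51.9-fold in wild-type and 5.94-fold to 23.3-fold in knockout piglets (exact permutation p = 0.257, adjusted p = 0.343). NRP2 exceeded NRP1 per kilobase in every library but knockout piglet 21, with a ratio of NRP1 to NRP2 of 0.667 to 0.925 in wild-type and 0.618 to 1.04 in knockout piglets (exact permutation p = 0.914, adjusted p = 0.914).

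**Figure D4:**
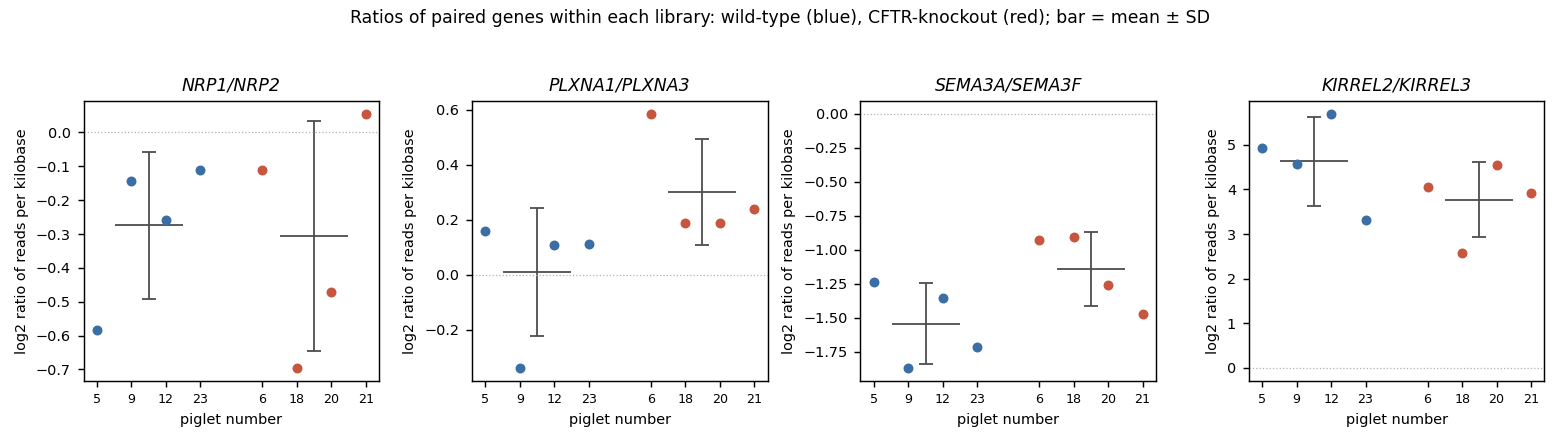
Log2 ratio of reads per kilobase for 4 pairs of guidance genes in each library (points, labelled by piglet number), with the mean ± SD of each group of 4. The PLXNA1 to PLXNA3 ratios of the knockout piglets lie above those of the wild-type piglets, the other ratios overlap.

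The wider guidance families were read from 9 lists of semaphorins, receptors, ephrins, netrins, adhesion molecules and effectors. Of 112 further genes in these lists 109 were matched and 105 tested. The edgeR test called 0 of them at an adjusted p under 0.05, with 9 higher and 3 lower at an unadjusted p under 0.05. DESeq2 called 1 lower, limma with quality weights called 0, and the groups did not overlap in 6. Over both directions these counts are near the background of all genes, of which 11.2% had an unadjusted p under 0.05 and 5.81% did not overlap. By direction, 5.4% of all genes were higher and 5.8% lower at an unadjusted edgeR p under 0.05. Positive log2 fold changes numbered 69 and negative ones 36, with a median of 0.11, beside 51.6% positive and a median of 0.01 over all genes. The counts per list given next also hold the guidance genes of that list.

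Among the neuropilins and plexins, 7 of 11 tested genes were positive, with a median of 0.20. PLXNB3, a receptor for SEMA5A, was the gene called by DESeq2 (adjusted p = 0.00680), at 15.1 to 21.9 CPM in the wild-type libraries against 10.2 to 13.5 CPM in the knockout libraries. All knockout values were below all wild-type values, with a log2 fold change of -0.66 ± 0.14 by edgeR (adjusted p = 0.326). PLXNA4, a partner of neuropilins in axon repulsion, was 68.0, 70.6, 174 and 68.9 CPM in the wild-type libraries against 159, 135, 236 and 168 CPM in the knockout libraries. As for ROBO2, wild-type piglet 12 was within the knockout range and the other 3 were below it. The log2 fold change of 0.87 ± 0.33 (adjusted p = 0.410, edgeR) became 1.33 ± 0.18 without that piglet (adjusted p = 0.0531, edgeR). Single omissions of a library gave 0.69 to 1.33, so the estimate without wild-type piglet 12 was the highest of them. PLXNB2, a receptor for class 4 semaphorins, had a log2 fold change of 0.20 ± 0.08 (adjusted p = 0.433, edgeR) with groups that did not overlap.

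Class 3 semaphorins were positive in 4 of 7 tested genes (median 0.04). SEMA3B had a log2 fold change of -0.34 ± 0.18, SEMA3D of 0.51 ± 0.28 and SEMA3G of 0.21 ± 0.28, with adjusted p of 0.496 to 0.771. by edgeR Membrane-anchored semaphorins were positive in 10 of 13 (median 0.12). SEMA6A, a ligand of PLXNA2 and PLXNA4, was 70.6 ± 5.93 CPM in the wild-type libraries against 86.7 ± 6.22 CPM in the knockout libraries (SD, n = 4 each), with no overlap and an edgeR adjusted p of 0.356. SEMA4D, the PLXNB1 ligand, had a log2 fold change of 0.54 ± 0.16 (adjusted p = 0.371, edgeR) and SEMA4B of 0.26 ± 0.14 (adjusted p = 0.479, edgeR).

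Of the SLIT and ROBO genes and their srGAP effectors 4 of 9 tested were positive (median -4.75e-05). SRGAP3, a GTPase-activating protein downstream of ROBO, had a log2 fold change of 0.47 ± 0.19 (adjusted p = 0.419, edgeR) and ROBO3, the divergent family member of commissural axons, of -0.36 ± 0.22 (adjusted p = 0.537, edgeR). SLIT3, a further ligand, peaked at 57.9 CPM for knockout piglet 18, so its log2 fold change of 0.84 ± 0.62 (adjusted p = 0.584, edgeR) turned to -0.29 without that piglet.

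The KIRREL and nephrin family was positive in 4 of 6 tested genes (median 0.13). KIRREL1 had a log2 fold change of 0.41 ± 0.17 (adjusted p = 0.425, edgeR), and the scaffold proteins CASK and TJP1, which bind the cytoplasmic tails of this family, of 0.11 ± 0.06 and 0.14 ± 0.15 (adjusted p = 0.496 and 0.711, edgeR). Ephrins and Eph receptors, which in mice take part with the KIRREL proteins in sorting axons into glomeruli, were positive in 12 of 20 (median 0.11). EFNA4 was 19.4 ± 1.92 CPM in the wild-type libraries against 15.3 ± 0.834 CPM in the knockout libraries (SD, n = 4 each), EFNA5 had a log2 fold change of 0.35 ± 0.12, and the groups overlapped in neither (adjusted p = 0.371 and 0.401, edgeR). EFNB1 had a log2 fold change of -0.39 ± 0.19 (adjusted p = 0.460, edgeR).

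Netrins and their receptors were positive in 11 of 15 tested genes (median 0.05), with log2 fold changes of 0.25 ± 0.12 for NEO1, 0.34 ± 0.20 for DSCAM and 0.22 ± 0.13 for RGMB (adjusted p of 0.460 to 0.533 by edgeR). Axonal adhesion molecules were positive in 12 of 18 (median 0.13). CNTN4, known as BIG-2 and a further sorting molecule of olfactory axons, was 385, 328, 665 and 387 CPM in the wild-type libraries against 650, 541, 704 and 563 CPM in the knockout libraries (log2 fold change 0.48 ± 0.21, adjusted p = 0.447, edgeR). Wild-type piglet 12 again lay in the knockout range and the other 3 below it. The estimate without that piglet was 0.74 ± 0.13 (adjusted p = 0.0701, edgeR), the highest of the single omissions, which gave 0.36 to 0.74. TENM4, a teneurin, had a log2 fold change of 0.49 ± 0.20 (adjusted p = 0.425, edgeR) and CNTN2, a contactin of axon bundles, of -0.20 ± 0.08 (adjusted p = 0.419, edgeR). Semaphorin signalling effectors were positive in 11 of 16 (median 0.05), with MICAL3, of a family of actin-oxidising enzymes, at 0.32 ± 0.11, the actin-severing protein CFL1 at -0.23 ± 0.11 and the collapsin response mediator DPYSL4 at 0.28 ± 0.17 (adjusted p of 0.406 to 0.523 by edgeR).

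**Figure D5:**
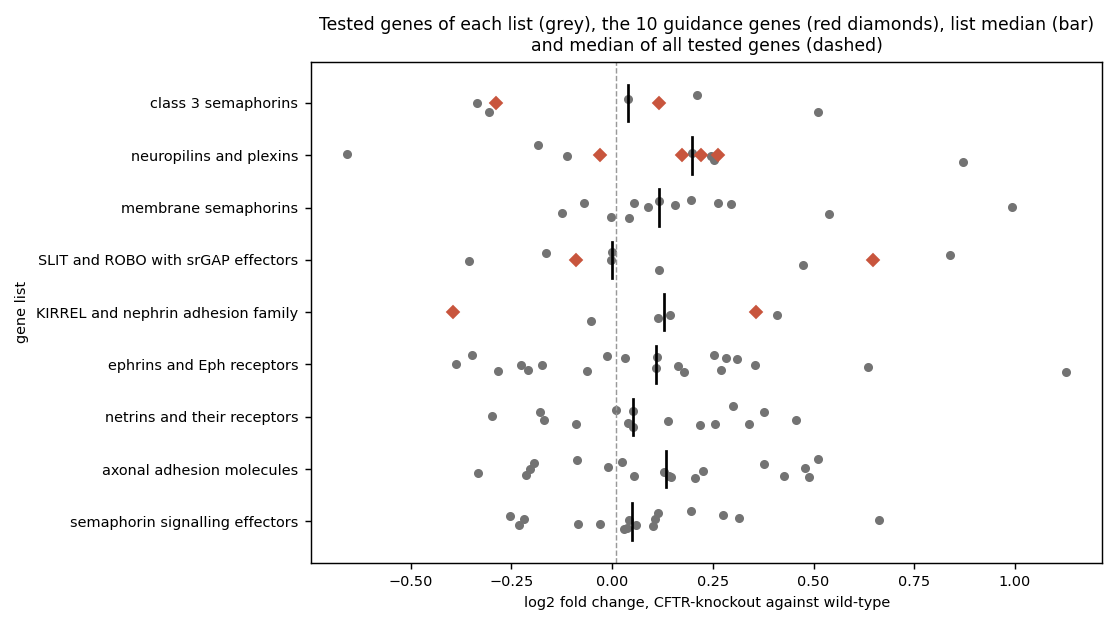
Log2 fold changes of tested genes in the 9 guidance lists (grey points), the 10 guidance genes (red diamonds), the median of each list (bar) and the median of all tested genes (dashed line, 0.01). List medians lie between -4.75e-05 and 0.20, and the points of every list spread to both sides of 0.

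Some genes followed single members closely across the 8 libraries. Likeness was measured as the root mean square difference of centred log2 CPM, among 12219 named genes that averaged 1 CPM or more. Among the nearest to KIRREL2 were NPHS1, which encodes nephrin (0.33), and ADAMTS16, a secreted protease (0.38), beside a standard deviation of 0.78 for KIRREL2 itself. NPHS1 is the neighbour of KIRREL2 on chromosome 6, on the opposite strand, with 3901 bases and no listed gene between them. It was 6.23, 5.73, 12.3 and 3.91 CPM in the wild-type libraries against 6.42, 3.32, 10.7 and 6.67 CPM in the knockout libraries, with its highest and its lowest value in the same libraries as KIRREL2.

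ROBO2 was closest to PALS2, a polarity scaffold (0.12), DOK6, a docking protein of receptor tyrosine kinases (0.13), and IRS2, an insulin receptor substrate (0.15), beside a standard deviation of 0.52. For PLXNA1 these were CPLX2, a regulator of synaptic vesicle fusion (0.06), DOCK11 (0.06) and ARNT2 (0.07), and for PLXNA3 they were RNF112, CFAP74 and GRIPAP1 (0.09 to 0.10). NRP2 was closest to ITGB1, the beta1 integrin subunit (0.09), NOTCH2 (0.10) and HIPK1 (0.11). For NRP1 the nearest genes, ZFP62, DENND2A and FEM1B, differed by 0.04 to 0.05, and for SEMA3F, with DNMT1, MACC1 and NUP160, by 0.07 to 0.08. The neighbours were PLD1, FERMT2 and IRX1 for SEMA3A (0.12 to 0.13), STEAP2, EME2 and PCK2 for SLIT1 (0.14 to 0.17) and ZFAT, ECH1 and FAM163B for KIRREL3 (0.12 to 0.14). Genes that vary little have near neighbours of this kind by the measure's construction, so the values describe these libraries only.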

How the data were processed

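For 8 libraries of 1 piglet each the authors deposited whole-number read counts of every gene, not normalized, in the layout of featureCounts per the file headers. DESeq2, featureCounts, HTSeq, FastQC, Subread 1.5.0-p3 and STAR 2.4.0 appear in the submitters' processing notes without role or order. The genome build and the use of strand in counting are not given in the sources used here, so coordinates are those of the deposited table and overlapping genes are uncertain. Identifiers that are not pig genes were left out, and pig genes held 99.9982% or more of each library. Symbols came from a table of gene names. Library totals were 30836904 to 43253395 counts, at which the counting error of the guidance genes was small beside the spread between piglets.

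Counts were tested with edgeR 4.0.16 in R 4.3.3 (quasi-likelihood test, TMM factors, default filter on low counts, genotype as factor, Benjamini-Hochberg threshold 0.05), after the pipeline had been tested on simulated data. In that simulation edgeR called 28% of 50 genes changed 1.5-fold and 72% of 50 genes changed 2-fold. Of all its calls, 7.10% were unchanged genes. Standard errors come from the F statistic and 95% intervals from the t distribution with the fit's degrees of freedom. Alternatives were DESeq2 1.42.0, limma 3.58.1 with quality weights, other factors and filters, a sex covariate and omission of libraries. The rule for named genes took CFTR, the 10 guidance genes, up to 3 further genes with the smallest p from each list, and the 3 genes nearest to each member. 1 gene named by this rule is not reported here. The genes and lists were chosen with earlier results of these data known. GNAI2, EIF1AY, KDM5D and the marker genes given as checks were named outside the rule.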

Additional observations from a re-analysis of the deposited data

Results flagged for a closer look

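Of 30 groups of 4 values checked (CFTR, the 10 guidance genes and the 4 ratios in each genotype), 3 held a library far from the other 3 by Dixon's criterion at 95%, where chance gives about 1 in 20. CFTR was 56.6 CPM in wild-type piglet 5 against 34.0 to 36.6 CPM in the other wild-type piglets. The log2 ratio of PLXNA1 to PLXNA3 was -0.34 in wild-type piglet 9 against 0.11 to 0.16 in the others. The same ratio was 0.59 in knockout piglet 6 against 0.19 to 0.24 in the others.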

How the results depend on the processing

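None of the 10 guidance genes was called in the 16 alternatives run with edgeR, DESeq2 or limma, and 6 of them (NRP1, NRP2, PLXNA1, SEMA3A, ROBO2 and KIRREL3) were positive and SEMA3F negative in all 16. With the sex covariate the log2 fold change turned to 0.29 for PLXNA3, 0.22 for SLIT1, 0.19 for KIRREL2, -0.14 for SEMA3G and -0.040 for TJP1, and without wild-type piglet 5 and knockout piglet 18 it turned to -0.061 for SLIT3. With 1 library left out at a time, estimates ran from -0.17 to 0.068 for PLXNA3, -0.27 to 0.072 for SLIT1, -0.59 to 7.2e-04 for KIRREL2 and -0.29 to 1.10 for SLIT3. Over the same omissions the difference in log2 ratio ran from -0.15 to 0.10 for NRP1/NRP2, 0.17 to 0.34 for PLXNA1/PLXNA3, 0.29 to 0.51 for SEMA3A/SEMA3F and -1.30 to -0.46 for KIRREL2/KIRREL3; the cause of these changes was not tested. Over all genes edgeR called 1, DESeq2 219, limma with quality weights 11, the fit without wild-type piglet 5 and knockout piglet 18 called 2, and single omissions 0 to 16, the highest without wild-type piglet 12. CFTR passed in 14 of 16 alternatives, and its adjusted p was 0.122 without knockout piglet 6 and 0.0544 without knockout piglet 20. Of the further guidance genes DESeq2 called 1, PLXNB3, and omissions 0. No paired analysis was possible because the piglet numbers of the groups do not coincide. SEMA3A, with 470 to 942 reads per library, is the member with the fewest reads, so sampling noise was small beside the spread between piglets.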

Other observations

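Several guidance genes shared the arrangement seen for ROBO2, in which wild-type piglet 12 lay inside the knockout range and wild-type piglets 5, 9 and 23 lay below it. These genes were picked after their values were seen, and the arrangement was not particular to guidance genes. Of the 14 matched mature neuron markers only ADCY3, GNAL and RIC8B also had it. The rest, CNGA4 and GFY among them, did not. The share of all tested genes with this arrangement was not counted. ADCY3 was 406, 552, 755 and 629 CPM in wild-type piglets 5, 9, 12 and 23 against 714 to 840 CPM in the knockout libraries. KIRREL1 was 56.1, 50.6, 82.2 and 52.9 CPM in wild-type piglets 5, 9, 12 and 23 and 69.7 CPM or more in each knockout piglet. SRGAP3 was 17.8, 14.3, 24.5 and 16.0 CPM in the wild-type libraries against 21.8 to 32.0 CPM in the knockout libraries. DCX, a microtubule-binding protein of migrating and immature neurons, was 60.3, 40.3, 99.4 and 38.3 CPM in the wild-type libraries against 77.7 to 128 CPM in the knockout libraries, with a log2 fold change of 0.66 ± 0.31 (adjusted p = 0.454, edgeR). Of the 16 matched immature neuron markers DCX alone had the arrangement. Among the others, GAP43, a growth cone protein, was 224, 305, 267 and 341 CPM in the wild-type libraries against 244 to 263 CPM in the knockout libraries. STMN2 was 817 to 976 CPM in the wild-type libraries and 831 to 919 CPM in the knockout libraries.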
